A study of Homo sapiens with 4 samples.

Results

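The miR-29 family was measured by the assays hsa-miR-29a, hsa-miR-29b and hsa-miR-29c (below miR-29a, miR-29b and miR-29c), which were the 3 assays with these names among the 377 human miRNA assays of a TaqMan quantitative PCR array card. All 3 were measured in each of 4 samples of RPMI8226, an established human multiple myeloma (plasma cell cancer) line, with 1 sample per group. The groups were the exosome fraction of medium from hypoxic cells (24 h at 1% oxygen), the exosome fraction of medium from normoxic cells (24 h at 20% oxygen), the hypoxic cells and the normoxic cells. Exosomes are small vesicles that cells release. The fraction was precipitated with a polymer reagent from 5 ml of filtered AIM-V medium, which enriches vesicles without separating them from other particles, and only its products were pre-amplified before PCR. Each value is a threshold cycle (Ct), the number of PCR cycles needed to reach a set fluorescence, so a Ct lower by 1 means 2-fold more template if each cycle doubles it. A Ct of 35, the highest in the table, was read as not detected. The labels do not say whether separate cultures lie behind a sample, and with 1 well per miRNA no difference between groups has a replicate error or a p-value.

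MicroRNAs are short RNAs that guide the silencing machinery to messenger RNAs, mainly by pairing through the seed, bases 2 to 8 from the 5′ end. The miR-29 miRNAs are known to repress the de novo DNA methyltransferases DNMT3A and DNMT3B, the survival protein MCL1, the cell-cycle kinase CDK6 and many collagen genes. In myeloma and other blood cancers miR-29b is described as a tumour suppressor, and the transcription factor MYC is known to hold the family's genes down.

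The mature sequences are shown because the members differ by few bases, which bears on how far the assays can tell them apart. The capitals mark the seed, and the sequences are those of RefSeq (GRCh38.p14) for the 3p strand, which the plain names stood for in earlier nomenclature; the deposited table holds no probe sequence.
miR-29a: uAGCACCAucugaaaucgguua
miR-29b: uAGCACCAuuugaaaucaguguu
miR-29c: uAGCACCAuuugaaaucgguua
All 3 share the seed AGCACCA, and among RefSeq's human mature miRNAs no other had it at bases 2 to 8. Counting positions from 1 at the 5′ end, miR-29a and miR-29c differed by the single substitution C10U and were identical over the last 12 bases. miR-29c and miR-29b were identical over the first 17 bases, then differed by G18A, U21G and A22U, and miR-29b has 23 bases against 22 in the other two. Whether the miR-29c assay also read miR-29a, or the reverse, was not tested.

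The 3′ ends are shown again with the last 6 bases in capitals, because this is where miR-29b departs from the others.
miR-29a: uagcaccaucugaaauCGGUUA
miR-29b: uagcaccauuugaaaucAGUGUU
miR-29c: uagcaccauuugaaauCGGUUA
The terminal AGUGUU of miR-29b is known, from work in human cells, to direct it to the nucleus, and miR-29b is known for fast turnover in cycling cells. Of 2351 distinct human mature sequences in the RefSeq table, 2 ended in AGUGUU (0.0851%), miR-29b and miR-519e-3p. The short motifs GGAG and CCCU, which have been linked to sorting into vesicles, were present anywhere in 15.8% and 11.9% of these sequences and in none of the miR-29 members. The search used the RNA strand as written.

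The 3 mature miRNAs come from 4 genes in 2 pairs, and the hairpins are shown because miR-29b is made from both pairs. Capitals mark the mature miRNA (RefSeq, GRCh38.p14, all on the minus strand, so that the gene named first in each pair is transcribed first).
MIR29B1: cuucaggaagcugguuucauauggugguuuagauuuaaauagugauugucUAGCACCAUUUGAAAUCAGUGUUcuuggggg
MIR29A: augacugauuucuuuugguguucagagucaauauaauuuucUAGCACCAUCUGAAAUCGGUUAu
MIR29B2: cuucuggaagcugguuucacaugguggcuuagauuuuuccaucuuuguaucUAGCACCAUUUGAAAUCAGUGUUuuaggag
MIR29C: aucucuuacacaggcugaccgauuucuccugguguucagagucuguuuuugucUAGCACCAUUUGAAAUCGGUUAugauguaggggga
MIR29B1 lies at chr7:130877459-130877539 and MIR29A at chr7:130876747-130876810, with 648 bases between the hairpins, and no other gene of the RefSeq table overlapped them. MIR29B2 lies at chr1:207802443-207802523 and MIR29C at chr1:207801852-207801939, with 503 bases between the hairpins. Both of these overlap the long non-coding RNA gene MIR29B2CHG (chr1:207801518-207822703). The mature miR-29b of the 2 pairs is identical, so its assay cannot tell MIR29B1 from MIR29B2. The 5p strands of these hairpins were not analysed here.

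The controls and the detection of other miRNAs set the frame for these values. A Ct under 35 was recorded for 219 and 221 miRNAs in the hypoxic and normoxic exosome fraction, and for 155 and 162 in hypoxic and normoxic cells. The small nuclear RNA U6, the normalizer in cells, had a Ct of 18.81 ± 0.12 in hypoxic cells and 18.82 ± 0.15 in normoxic cells (SD, n = 4 wells of 1 sample). It was not detected in the exosome fraction, where the added plant miRNA ath-miR159a, the normalizer there, stood at Ct 22.99 in hypoxia and 22.94 in normoxia. Of 8 blood and lymphoid miRNAs, 8 were detected in each exosome sample and 7 in each cell sample; miR-342-3p was at the ceiling in cells. Of 5 fibroblast miRNAs, 2 and 1 were detected in the hypoxic and normoxic exosome fraction and 1 in each cell sample. The liver miRNA miR-122 was at the ceiling in all 4 samples, and of the red cell and platelet miRNAs miR-451 and miR-486-5p only miR-451 was read, in the normoxic exosome fraction at Ct 33.2. Of the 2 muscle miRNAs counted, miR-1 and miR-133a, 2 were detected in each exosome sample, and 1 and 0 in hypoxic and normoxic cells. The card holds further muscle miRNAs that were not in this count. Among them miR-133b and miR-499-5p were read in the normoxic exosome fraction only (Ct 31.1 and 34.0), and miR-208 and miR-208b in no sample. Of 3 nervous system miRNAs, 3 were detected in each exosome sample and 2 in each cell sample. The part of the medium, or of other cell sources, in the exosome values was not tested.

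The levels of the members kept 1 order in all 4 samples: miR-29a highest, miR-29c next and miR-29b lowest. hsa-miR-29a had a Ct of 19.94 in the hypoxic and 19.91 in the normoxic exosome fraction, and of 23.95 in hypoxic and 24.33 in normoxic cells. It was among the most abundant miRNAs of every sample, at rank 19 of 219 in the hypoxic and 16 of 221 in the normoxic exosome fraction, and at rank 6 of 155 in hypoxic and 9 of 162 in normoxic cells. hsa-miR-29c had a Ct of 22.64 in the hypoxic and 22.97 in the normoxic exosome fraction, and of 27.84 in hypoxic and 27.97 in normoxic cells. Its rank was 40 in the hypoxic and 49 in the normoxic exosome fraction, and 32 in hypoxic and 36 in normoxic cells. hsa-miR-29b had a Ct of 24.89 in the hypoxic and 24.95 in the normoxic exosome fraction, and of 29.96 in hypoxic and 30.54 in normoxic cells. Its rank was 82 in both exosome samples, 57 in hypoxic and 69 in normoxic cells, in the more abundant part of the detected miRNAs but nearer to their middle.

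Each member's nearest neighbours in the order of Ct often lay closer than the spread between U6 wells. In hypoxic cells miR-29a stood between miR-24 (Ct 23.90) and miR-19a (Ct 23.95), while in normoxic cells its neighbours miR-24 and miR-222 were 0.35 and 0.58 cycles away. In the exosome fraction miR-30c was within 0.04 cycles of miR-29a at both oxygen levels. miR-29c stood directly below let-7g in hypoxic and normoxic cells, by 0.07 and 0.01 cycles, and next to miR-100 in both exosome samples. miR-29b stood beside miR-146b-5p and miR-152 in hypoxic cells, by less than 0.01 cycles each. A rank among such neighbours is therefore a description of 1 well per assay.

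**Figure D1:**
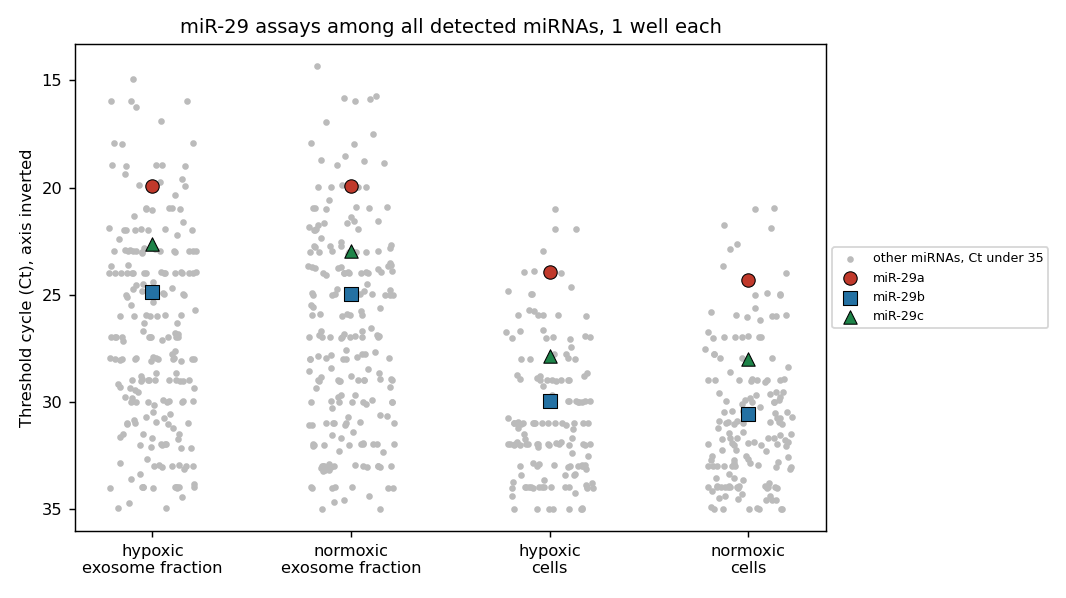
Threshold cycle (Ct, inverted so that abundant miRNAs stand high) of the miR-29 assays (coloured) and of all other miRNAs under Ct 35 (grey) in each sample, 1 well per point. In all 4 samples miR-29a is highest, miR-29c next and miR-29b lowest; the lower Ct values of the exosome fraction follow a pre-amplification that the cells did not get.

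The distance between members was large, and smaller in the exosome fraction than in cells. A difference of Ct within a sample needs no normalizer, although it takes the assays as equally efficient. A constant offset in Ct between assays cancels when the same gap is compared between samples treated alike. A difference in amplification per cycle need not cancel where the levels themselves shift. miR-29a was 30.8-fold and 32.9-fold above miR-29b in the hypoxic and normoxic exosome fraction, and 64.7-fold and 74.1-fold above it in hypoxic and normoxic cells. miR-29a was 6.47-fold and 8.33-fold above miR-29c in the hypoxic and normoxic exosome fraction, and 14.8-fold and 12.5-fold above it in hypoxic and normoxic cells. Both gaps were thus wider in each cell sample than in each exosome sample. miR-29c was 4.75-fold and 3.95-fold above miR-29b in the hypoxic and normoxic exosome fraction, and 4.37-fold and 5.94-fold above it in hypoxic and normoxic cells, so this distance did not separate the compartments.

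On the log2 scale the gap of miR-29b to miR-29a was -4.94 in the exosome fraction and -6.02 in cells after hypoxia, a difference of 1.07. After normoxia it was -5.04 in the exosome fraction and -6.21 in cells, a difference of 1.17. For miR-29c the gap to miR-29a was -2.69 in the exosome fraction and -3.89 in cells after hypoxia, a difference of 1.19, and -3.06 and -3.64 after normoxia, a difference of 0.58. These differences exceeded the SD between U6 wells, which were read in cells only. Each difference combines 4 single wells, some of them pre-amplified, so that SD is not a measure of its error. The change in gap between any pair of the 138 miRNAs detected in all 4 samples had a median size of 1.58 in each oxygen condition. Pre-amplification was applied to the exosome fraction alone, and its part in the narrower gaps cannot be told apart from that of the compartment.

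If the assays are taken as equally efficient, miR-29a made up 84.2% and 86.9% of the summed family level in the hypoxic and normoxic exosome fraction, and 92.3% and 91.4% in hypoxic and normoxic cells. miR-29c made up 13.0% and 10.4% in the exosome fraction and 6.23% and 7.34% in cells. miR-29b, made from both gene pairs, contributed 2.74% and 2.64% in the exosome fraction and 1.43% and 1.23% in cells. The family sum is thus close to a reading of miR-29a.

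**Figure D2:**
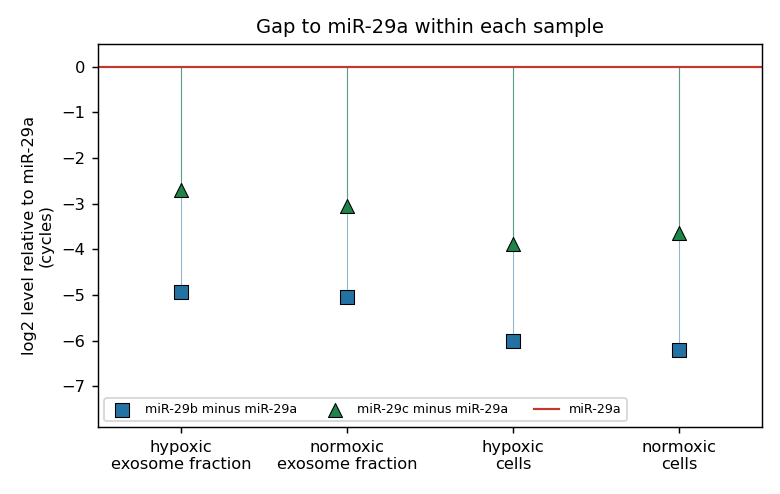
Level of miR-29b (squares) and miR-29c (triangles) relative to miR-29a (line at 0) within each sample, in log2 units (cycles), from 1 well per assay and with no normalizer. The gap of miR-29b is -4.94 and -5.04 in the exosome fraction and -6.02 and -6.21 in cells; that of miR-29c is -2.69 and -3.06 in the exosome fraction and -3.89 and -3.64 in cells.

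The study asked whether hypoxia changes miRNAs in the exosome fraction and in the cells, and none of the miR-29 members differed by 2-fold in either. Log2 changes are of levels normalized to the spike-in in the exosome fraction and to the mean of the U6 wells in cells. In the exosome fraction 7.39% of the 203 miRNAs under Ct 35 in both samples were past 2-fold in either direction, and in cells 13.6% of 147 were, so a count of 0 among 3 members is not a result about the family. With Ct under 32 required in both samples, which all members met, these shares were 1.13% of 177 in the exosome fraction and 5.32% of 94 in cells. In a sample of pooled cells, fewer cells that make a miRNA and less of it per cell cannot be told apart.

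In the exosome fraction miR-29c had the largest value of the family. Its Ct minus that of the spike-in was -0.35 in hypoxia and 0.04 in normoxia, a log2 change of 0.39 (1.31-fold), at rank 26 from the highest of 203. Of the 27 other miRNAs whose mean Ct lay within 1 cycle of its own, none was above it, their log2 changes running from -0.79 to 0.38. This place rests on a small margin and on the edge of the window. The highest of the 27, miR-200a, was at 0.3797 against 0.3866 for miR-29c. Just outside the window miR-15b (0.4113) and miR-210 (0.3889) were above miR-29c. For miR-29b the normalized Ct was 1.899 in hypoxia and 2.02 in normoxia, a log2 change of 0.12 (1.09-fold). For miR-29a it was -3.04 in hypoxia and -3.02 in normoxia, a log2 change of 0.02 (1.02-fold). The last 2 changes are below 0.15, the larger of the SDs between U6 wells, which were read in cells only; 92.6% of all 203 miRNAs were at least as far from 0 as miR-29a.

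In cells miR-29b had the largest value of the family. Its Ct minus that of U6 was 11.1 in hypoxia and 11.7 in normoxia, a log2 change of 0.58 (1.49-fold), at rank 30 from the highest of 147. Of the 28 other miRNAs within 1 cycle of its mean Ct, 3 were above it. For miR-29a the normalized Ct was 5.13 in hypoxia and 5.51 in normoxia, a log2 change of 0.38 (1.30-fold). This was above all 7 other miRNAs within 1 cycle of it, which ran from -1.09 to 0.29, yet 46.3% of all 147 miRNAs were at least as far from 0. For miR-29c it was 9.02 in hypoxia and 9.15 in normoxia, a log2 change of 0.13 (1.10-fold), between the SDs of the U6 wells in hypoxic (0.12) and normoxic cells (0.15).

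All 6 of these log2 changes were above 0, where 41.9% of all miRNAs in the exosome fraction and 55.1% of those in cells were. With the small nucleolar RNAs RNU44 and RNU48 as normalizer the cellular changes moved by -0.15, to 0.23 for miR-29a, 0.43 for miR-29b and -0.02 for miR-29c. RNU44 itself had a log2 change of 0.29 against U6, larger than that of miR-29c, and RNU48 one of 0.01. With the sample medians of Ct as normalizer, miR-29a in the exosome fraction turned to -0.01. The sign is thus shared over these settings by miR-29a and miR-29b in cells and by miR-29b and miR-29c in the exosome fraction. The sum of the 3 members was 1.05-fold in the hypoxic over the normoxic exosome fraction and 1.29-fold in hypoxic over normoxic cells.

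**Figure D3:**
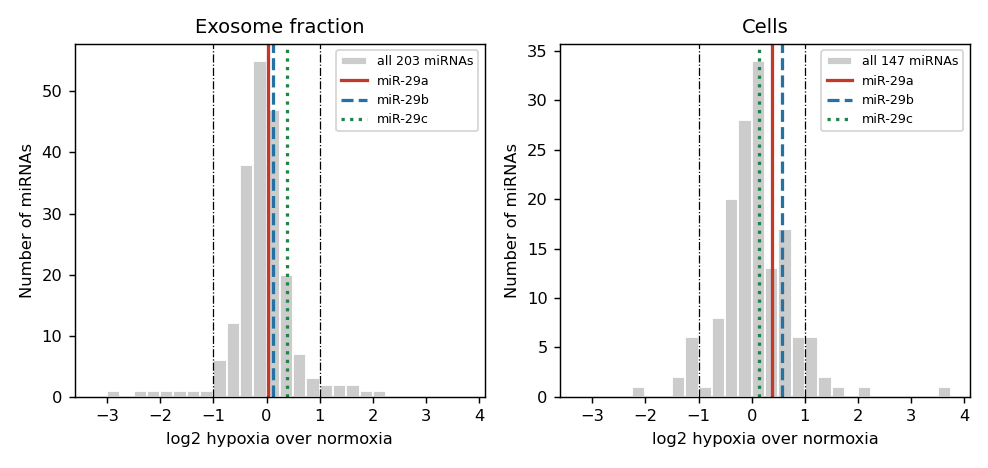
Histograms of log2 hypoxia over normoxia for all miRNAs detected in both samples of the exosome fraction (left, 203) and of the cells (right, 147), with the miR-29 members as coloured lines and 2-fold as dash-dotted lines. The members lie between 0.02 and 0.39 in the exosome fraction and between 0.13 and 0.58 in cells, within 2-fold in both.

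The cellular log2 change with oxygen was then subtracted from that of the exosome fraction. The result was -0.36 for miR-29a, -0.46 for miR-29b and 0.26 for miR-29c, where the median of the 138 miRNAs detected in all 4 samples was -0.17 with quartiles at -0.59 and 0.15. Both miR-29a and miR-29b thus lay inside the quartiles, and miR-29c lay above the upper one, at rank 30 from the highest. In this comparison 5.8% of miRNAs were at least 2-fold higher and 10.1% at least 2-fold lower in the exosome response, and no miR-29 member was among either. The order of the members by oxygen change differed between compartments, with miR-29c first in the exosome fraction and last in cells; this difference was not tested.

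Levels in the exosome fraction and in cells have no control RNA in common, since U6 was not detected in the first and the spike-in not in the second. For this comparison every Ct was centred on its sample's median over the 138 miRNAs detected in all 4 samples. On this scale all 3 members were lower in the exosome fraction than in cells at both oxygen levels. No centring removes an unequal pre-amplification of assays, which only the exosome fraction received. Its part in these differences cannot be told apart from that of the compartment. miR-29a stood 4.04 above the median in the exosome fraction and 7.02 above it in cells after hypoxia, a log2 difference of -2.98 (7.90-fold lower). After normoxia it stood 4.05 above the median in the exosome fraction and 6.58 above it in cells, a log2 difference of -2.53 (5.78-fold lower). With this centring it was the only member at least 4-fold lower at both oxygen levels, as were 16.7% of the 138 miRNAs.

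miR-29b stood at -0.90 in the exosome fraction and 1.01 in cells after hypoxia, a log2 difference of -1.91. After normoxia it stood at -0.99 in the exosome fraction and 0.37 in cells, a log2 difference of -1.36. miR-29c stood at 1.35 in the exosome fraction and 3.13 in cells after hypoxia, a log2 difference of -1.79. After normoxia it stood at 0.99 in the exosome fraction and 2.94 in cells, a log2 difference of -1.95. Both thus lay within 4-fold at each oxygen level, with miR-29b after hypoxia and miR-29c after normoxia closest to that limit.

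The size of these differences rests on the centring. The sample medians did not centre the differences themselves, whose median over the 138 miRNAs was -0.83 after hypoxia and -0.44 after normoxia. Relative to that median miR-29a was at -2.15 after hypoxia and -2.09 after normoxia, miR-29b at -1.08 and -0.92, and miR-29c at -0.96 and -1.51. With the mean Ct as centre miR-29a was at -2.05 after hypoxia and -1.87 after normoxia, and so short of 4-fold in the second. With the median of the 89 miRNAs under Ct 32 in all samples as centre it was at -1.99 and -1.79, short of 4-fold in both. All 3 were on the lower side under each centring tried, and 15.2% of the 138 miRNAs were at or below miR-29a at each oxygen level. Among miRNAs within 1 cycle of miR-29a in the cells, 6 of 6 after hypoxia and 5 of 6 after normoxia had a higher exosome-to-cell difference. For miR-29b these were 16 of 19 and 25 of 32, and for miR-29c 9 of 17 and 11 of 16.

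**Figure D4:**
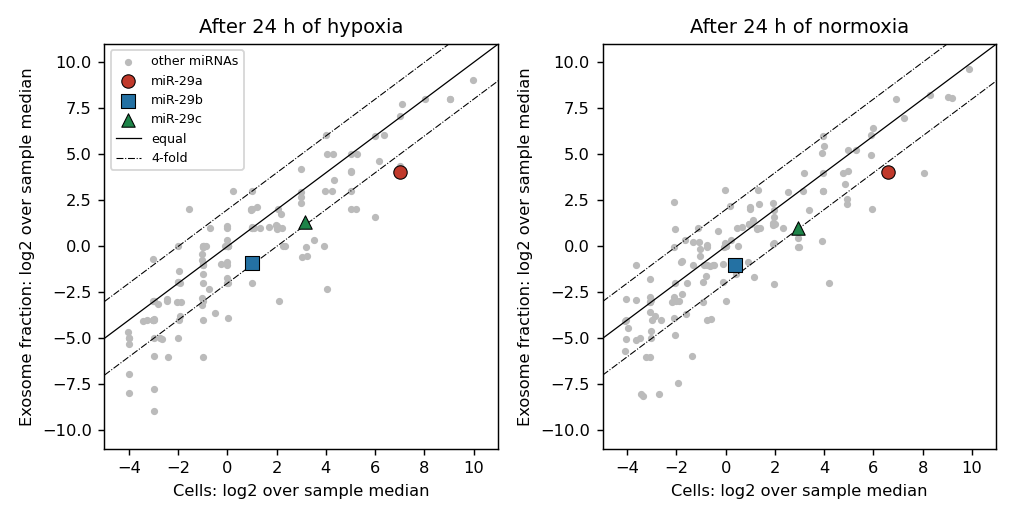
Level in the exosome fraction (vertical) against level in cells (horizontal), each as log2 over the sample's median, for the 138 miRNAs detected in all 4 samples after hypoxia (left) and normoxia (right); 1 well per value. The miR-29 members lie below the line of equal level in both panels, and miR-29a below the 4-fold line in both.

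The Ct values themselves were not spread evenly over the cycle, which touches every small difference above. Of the 757 miRNA wells under Ct 35, 63.4% lay within 0.1 of a whole cycle, and 55.7% lay less than 0.1 below one. Of the 12 miR-29 values, 7 lay within 0.1 of a whole cycle. miR-29a was near a whole cycle in 3 samples and at 24.33 in normoxic cells, and miR-29b in hypoxic cells (29.96) and the normoxic exosome fraction (24.95). miR-29c was near one in the normoxic exosome fraction (22.97) and in normoxic cells (27.97). The cellular changes of miR-29a and miR-29b were each between a value near a whole cycle in hypoxia and one away from it in normoxia. For miR-29c the value away from it was the hypoxic one, in the exosome fraction (22.64) and in cells (27.84). The hypoxic exosome value of miR-29b (24.89) also lay just outside 0.1. How the values came to gather there is not stated in the labels or files, and its part in the changes was not tested.

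**Figure D5:**
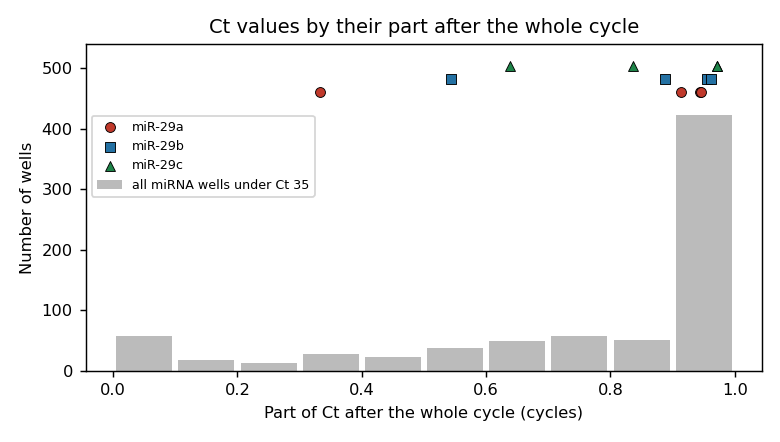
Number of miRNA wells under Ct 35 (bars, all 4 samples together) by the part of Ct after the whole cycle, with the 4 values of each miR-29 member as symbols at an arbitrary height. The tallest bar, from 0.9 to 1, holds 422 of 757 wells.

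The miRNAs most like each member across the 4 samples were sought by the root mean square difference of their centred Ct profiles, over the 138 miRNAs detected in all 4. miR-29a was most like miR-135b (0.09 cycles), miR-483-5p (0.16), miR-126 (0.17), let-7g (0.19) and miR-26a (0.20). miR-29b was most like miR-184 (0.19), miR-29c (0.22), miR-744 (0.22), miR-101 (0.23) and miR-31 (0.24). miR-29c was most like miR-636 (0.14), miR-101 (0.14), miR-135a (0.18), miR-31 (0.18) and miR-574-3p (0.20), with miR-29b in place 6. Between any pair of these 138 miRNAs the median difference was 0.86 cycles. miR-29a, whose gene lies beside MIR29B1, was in place 42 of 137 for miR-29b (0.57) and 25 for miR-29c (0.47). Of the 60 Ct values behind these 15 places 71.7% lay within 0.1 of a whole cycle, and the profiles rest on 4 samples, so this order is a description.

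miRNAs known to share a regulator or a target with the miR-29 family were listed without its members, with earlier results of these data known. Of 15 other miRNAs known to be repressed by MYC, 12 were measured in both exosome samples and 13 in both cell samples, and none of those was past 2-fold with oxygen, beside 7.39% of all miRNAs in the exosome fraction and 13.6% in cells; miR-15a, the cluster partner of miR-16, was read in normoxic cells only, at Ct 30.1. Their median log2 change was -0.17 in the exosome fraction, against -0.07 over all miRNAs, and 0.21 in cells, against 0.03 over all. Those with the lowest Ct averaged over all 4 samples were miR-16, a repressor of BCL2 (-0.31 in cells), miR-146a, a brake on innate immune signalling (0.23), miR-30c (0.01) and miR-30b (0.09). Of the 11 detected in all 4 samples, 5 after hypoxia and 4 after normoxia were at least 4-fold lower in the exosome fraction. None of the 11 was at least 4-fold higher. Of all 138 miRNAs, 24.6% after hypoxia and 18.1% after normoxia were at least 4-fold lower. List members at the ceiling in any sample are outside this count, and they differed in direction. miR-22 was read well under the ceiling in both exosome samples and in neither cell sample. Conversely, let-7a and let-7f were read in both cell samples and in neither exosome sample.

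Of 4 other miRNAs known to repress DNA methyltransferases, miR-148a, miR-152 and miR-148b were measured in all samples. None was past 2-fold with oxygen, which for 3 miRNAs is no result about the list at the shares of 7.39% and 13.6% given for all miRNAs. Unlike the miR-29 members, miR-148a and miR-152 were above their cellular level in the exosome fraction, with log2 differences of 1.02 and 1.03 after hypoxia and 1.46 and 1.13 after normoxia. miR-148b was at -0.71 after hypoxia and 0.49 after normoxia. miR-143, which is typical of stroma and known to repress DNMT3A, was read in the hypoxic exosome fraction only, at Ct 34.0.

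Of 4 other miRNAs known to repress MCL1, miR-193b, miR-125b and miR-101 were measured in all samples and lay within 2-fold with oxygen, as did all but 7.39% of miRNAs in the exosome fraction and 13.6% in cells. Their log2 changes were -0.04, -0.35 and -0.02 in the exosome fraction and 0.28, 0.07 and 0.08 in cells. miR-101 lay on the lower side in the exosome fraction (-2.004 after hypoxia and -1.81 after normoxia). Its hypoxic value was just past 4-fold, as were 24.6% of all 138 miRNAs on the lower side. miR-193b lay on the higher side (0.74 and 1.16) and miR-125b was at -0.05 and 0.45. miR-133b was read in the normoxic exosome fraction only, at Ct 31.1. Neither the miR-29 targets nor any protein was measured here.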

How the data were processed

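RNA of RPMI8226 cells and of the exosome fraction of their medium was reverse transcribed with Megaplex primers (3 µl of 50 µl eluate) and measured on TaqMan array cards, per the labels' protocols; 1 µl of 1 nM ath-miR159 was added at lysis. The deposited table of the authors holds a Ct per well, not normalized. A second deposited table gives the authors' ratio of hypoxia over normoxia, made with Data Assist 3.1 and with U6 and the spike-in as controls, per the series' design text; the values computed here differed from it by under 0.001 on the log2 scale. Per-cycle amplification was taken as 2. Log2 changes are negative differences of normalized Ct, over assays under Ct 35. Calculations used Python 3.11.15, pandas 2.3.3 and numpy 2.4.6 and were tested on simulated data. Groups came from sample titles. With 1 sample per group no test was made, and Ct values carry no count or depth. Named miRNAs are the members, the controls, the 5 nearest profiles per member, neighbours in rank, and up to 4 members per list by lowest mean Ct. In addition, miR-148b, miR-143, miR-101 and miR-133b complete short lists. From the MYC list miR-15a, miR-22, let-7a and let-7f are named for their values at the ceiling. Muscle assays outside the counted list are named beside it, and miR-200a, miR-15b and miR-210 as the miRNAs of like Ct closest to or above miR-29c. The members and lists were chosen with earlier results of these data known. Other normalizers, centrings, Ct limits and efficiencies were tried. Sequences came from RefSeq tables (GRCh38.p14); 326 of 377 assay names matched a mature name, the members among them.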

Additional observations from a re-analysis of the deposited data

How the results depend on the processing

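Of 74 alternative values for the members, 46 moved by less than 0.152 cycles, the larger SD between U6 wells and the only repeat measurement in the data. These 46 include all alternatives for the oxygen changes and for the difference of response. Of these small values 2 changed sign. They were miR-29c in cells with RNU44 and RNU48 (-0.02) and miR-29a in the exosome fraction with the sample median (-0.01). Several of the 46 could hardly move that far by construction. Such settings drop 1 of the U6 wells that gave the SD, repeat the authors' ratio from the same controls, or rescale small oxygen changes to 1.9 per cycle. RNU44 and RNU48 shifted all 3 members by the same -0.149, which is larger in size than the SD of 0.121 in hypoxic cells. The count of 46 is thus no measure of robustness. Exosome values have no repeat of their own. The other 28 moved by more, none with a change of direction. With the mean Ct as centre the exosome-to-cell log2 difference was -2.05 in hypoxia and -1.87 in normoxia for miR-29a, -0.98 and -0.70 for miR-29b, and -0.85 and -1.29 for miR-29c. With the median of the 89 miRNAs under Ct 32 in all samples as centre it was -1.99 and -1.79 for miR-29a, -0.92 and -0.62 for miR-29b, and -0.80 and -1.20 for miR-29c. With the median difference as centre, chosen after seeing the data, it was -2.15 and -2.09 for miR-29a, -1.08 and -0.92 for miR-29b, and -0.96 and -1.51 for miR-29c. miR-29a was thus short of 4-fold lower in normoxia with the mean, and at both oxygen levels with the stricter median. At 1.9 per cycle miR-29a was at -2.76 and -2.34. At 1.9 per cycle the gap of miR-29b to miR-29a was -4.58 and -4.67 in the hypoxic and normoxic exosome fraction and -5.57 and -5.75 in hypoxic and normoxic cells, and that of miR-29c was -2.50 and -2.83 in the exosome fraction and -3.60 and -3.37 in cells, a change that follows from the construction.

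Counts over all miRNAs moved with the Ct limit. Under a limit of Ct 32, 2 miRNAs were past 2-fold on the higher side and 0 on the lower in the exosome fraction (8 and 7 otherwise), and 1 higher and 4 lower in cells (11 and 9 otherwise). With RNU44 and RNU48 the cellular counts were 6 and 10. Between compartments the counts at 4-fold, 5 higher and 34 lower in hypoxia and 9 and 25 in normoxia, were 3 and 21, and 3 and 15, under Ct 32, and 8 and 23, and 11 and 22, with the median difference as centre. No paired analysis was possible because each group holds 1 sample and the replicate number 1 marks no shared culture; a fit over the oxygen and compartment labels would take the difference in response, itself a comparison, as its error.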

Other observations

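The gathering of Ct values near whole cycles differed between samples and kinds of well. The share of miRNA wells within 0.1 of a whole cycle was 67.1% in the hypoxic and 61.1% in the normoxic exosome fraction, and 71.6% in hypoxic and 53.7% in normoxic cells. Of the 8 U6 wells of the cells, 2 lay that close. The U6 values are given to 6 decimals and the miRNA values to at most 4.

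The other card assay whose RefSeq sequence can end in AGUGUU, miR-519e, was read in the normoxic exosome fraction only, at Ct 33.99, so miR-29b was the only one of them with a value in every sample. The card gives no arm for miR-519e.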
